A study of Saccharomyces cerevisiae with 6 samples.

Results

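The tRNAs that carry the aromatic amino acids phenylalanine, tyrosine and tryptophan were followed in the tRNA pools of wild type, *rtf1∆* and *paf1∆* yeast. They were chosen by name, as all listed sequences assigned to these 3 amino acids, and comprised 8 of the 70 tRNA sequences counted. Sequences whose names differ only in the last number were summed into families, which gave 4 of the 55 families. The families are tRNA-Phe 1 with 2 sequences and tRNA-Phe 2 with 3, both with the anticodon GAA, tRNA-Trp with 1 sequence and the anticodon CCA, and tRNA-Tyr with 2 sequences and the anticodon GUA.

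The pools were measured by tRNA-HySeq, in which gel-purified tRNA is partially hydrolysed and the short fragments are sequenced. The wild type strain was DAS217, the *rtf1∆* strain DAS549 and the *paf1∆* strain DAS516, with 2 libraries each and 6 in all, and each genotype is represented by 1 strain. All were grown untreated to log phase in YEP medium with dextrose. DAS217 is not in the strain list of the study, so a difference in background between wild type and the deletion strains cannot be told apart from the deletions. Nothing in the labels says that the 2 libraries of a genotype came from separate cultures, so p-values measure only the spread between libraries.

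Each library had 519302 to 8259323 reads aligned to tRNAs, which were 5.64 to 6.76% of the reads in the wild type and *rtf1∆* libraries and 87.4 to 87.9% in the *paf1∆* libraries. The listed length of all 70 reference sequences is greater by 3 nucleotides in *paf1∆* than in the other libraries. Genotype and processing therefore cannot be told apart in any comparison with *paf1∆*. By their names, replicate 1 of wild type belongs to set 1 and the other wild type library to set 2, as do both *rtf1∆* libraries, while *paf1∆* libraries have no set. Every level given here is a part of the tRNA reads of its library, not an amount per cell.

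In yeast, tRNA genes are transcribed by RNA polymerase III from promoters inside the gene, the A box and the B box, which are bound by the factor TFIIIC. Genes with an intron give a longer precursor, and the tRNA splicing endonuclease cuts the intron out next to the anticodon before a ligase joins the exons. Paf1 and Rtf1 are subunits of the PAF1 complex, which travels with elongating RNA polymerase II. tRNA-Phe reads both phenylalanine codons and tRNA-Tyr both tyrosine codons, whereas tRNA-Trp reads the only codon of tryptophan. Mutated copies of the tRNA-Tyr genes are the classical nonsense suppressors of yeast, from which their SUP names come.

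The R64 reference annotation of *S. cerevisiae* holds 24 genes for these tRNAs, 8.73% of its 275 nuclear tRNA genes, on 11 chromosomes. An intron interrupts all 24, whereas 60 of the 275 genes (21.8%) have one. They comprise 10 genes for tRNA-Phe, 8 for tRNA-Tyr and 6 for tRNA-Trp. The listed names were matched to the genes by the number and length of the distinct sequences in each family, since the listed lengths in the wild type and *rtf1∆* libraries equal those of the unspliced genes. The reference used for alignment therefore had the introns in it. The introns are 18 or 19 nucleotides long in tRNA-Phe genes, 14 in tRNA-Tyr genes and 34 in tRNA-Trp genes. The sequences below, from the RefSeq R64 assembly, show what separates the families, each 5′ to 3′ along the tRNA with the intron in capitals.
tRNA-Phe 1, chrIV:1095370-1095461, minus strand, 92 nucleotides: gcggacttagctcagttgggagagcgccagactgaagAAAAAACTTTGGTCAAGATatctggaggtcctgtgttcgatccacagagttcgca
tRNA-Phe 2, chrVI:157916-158007, minus strand, 92 nucleotides: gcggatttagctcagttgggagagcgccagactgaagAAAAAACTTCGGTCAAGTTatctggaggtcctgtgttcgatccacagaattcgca
tRNA-Trp, chrVII:287350-287455, minus strand, 106 nucleotides: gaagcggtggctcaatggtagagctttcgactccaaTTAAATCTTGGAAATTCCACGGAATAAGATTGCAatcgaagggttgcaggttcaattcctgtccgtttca
tRNA-Tyr of SUP11, chrVI:167437-167525, plus strand, 89 nucleotides: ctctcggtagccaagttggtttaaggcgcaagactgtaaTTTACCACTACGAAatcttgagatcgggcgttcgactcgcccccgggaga
tRNA-Tyr of SUP2, chrIV:946312-946400, plus strand, 89 nucleotides: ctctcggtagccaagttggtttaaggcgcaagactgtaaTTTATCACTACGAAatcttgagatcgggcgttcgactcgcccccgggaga

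After removal of the intron, the tRNA-Phe families differ at 2 of 73 positions, T6C and A67G, with the tRNA-Phe 2 base first and positions counted from the 5′ end of the spliced tRNA. Within a tRNA-Phe family the sequences differ in the intron only. tRNA-Phe 1 has 1 gene each on chromosomes IV and XIV. The tRNA-Phe 2 sequence shown is carried by 6 of the 8 tRNA-Phe 2 genes, and the other two sequences by 1 gene each, on chromosomes II and XIII. The 8 tRNA-Tyr genes have the same exons, and 5 of them differ from the other 3 at 1 intron position, C44T, counted from the 5′ end of the unspliced gene with the base of the 5 genes first. All 6 tRNA-Trp genes have 1 sequence. Spliced tRNA-Trp and tRNA-Tyr are 53.1% identical, and either is 58.0 to 61.0% identical to tRNA-Phe.

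A match to the A box consensus was found in 18 of the 24 genes, all but the tRNA-Trp genes, against 80 of the 275 nuclear tRNA genes (29.1%). The strict B box consensus was found in 0 of the 24 genes and in 82 of the 275 (29.8%). A looser core of the B box, GTTCNANNC, was chosen after the sequences were seen and was found in 24 of 24 and in 270 of 275 genes (98.2%). The spliced sequences were searched on the tRNA strand only, and the looser core lies inside the strict B box. These matches describe letters only.

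**Figure D1:**
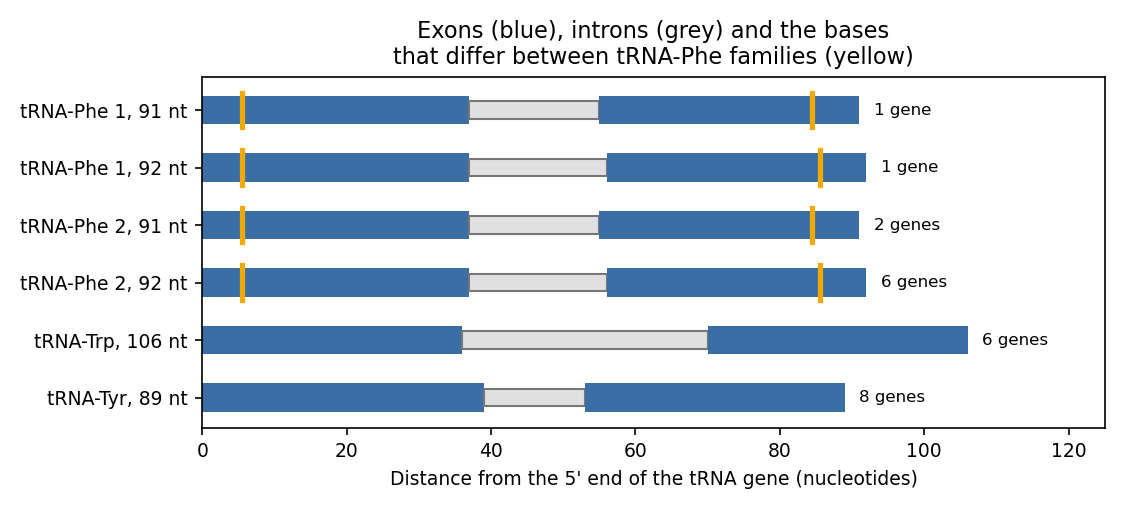
Exons (blue), introns (grey) and the bases that differ between the tRNA-Phe families (yellow) in the genes of each listed length, drawn to scale in nucleotides from the 5′ end of the gene, with the number of genes at the right. The tRNA-Trp intron, at 34 nucleotides, is the longest of the 4 families, and the tRNA-Phe differences lie near both ends of the gene.

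Reads were not resolved to single copies within a family. In tRNA-Phe 1 the 2 sequences had 3466 and 3450 reads in wild type replicate 1 and 9029 and 8936 in replicate 2. In *paf1∆* replicate 1 they had 17751 and 17619 reads. The highest ratio between copies of a family in any library was 1.03. In 18 chi-square tests of equal counts, 1 for each family of several sequences in each library, the smallest p was 0.0185, and 0.333 after Benjamini-Hochberg adjustment over the 18 tests. No difference between copies of a family passed after adjustment.

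The tRNA-Phe 2 sequence with 6 of 8 genes (75.0%) took 33.2 to 33.8% of the reads of its family in the 6 libraries, with 95% Wilson limits between 32.6 and 34.5%. Equal division among 3 sequences would give 33.3%. Read number per listed sequence therefore did not follow gene number, and the sequences of a family were counted together below. The 2 tRNA-Tyr sequences likewise had 4549 and 4610 reads in wild type replicate 1, and 1879 and 1897 in *rtf1∆* replicate 2, although 5 genes carry one and 3 the other.

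The 2 tRNA-Phe families were unequal in reads per listed sequence. tRNA-Phe 2 had 1.95 and 1.18 times the reads per sequence of tRNA-Phe 1 in wild type, replicates 1 and 2. The ratio was 1.84 and 1.92 in *rtf1∆* and 1.69 and 1.32 in *paf1∆*. It was above 1 in 6 of 6 libraries, and the wild type values enclosed those of *paf1∆* and of *rtf1∆*. Per gene, with 2 genes of tRNA-Phe 1 and 8 of tRNA-Phe 2, tRNA-Phe 1 was the higher in 6 of 6 libraries. It had 0.666 and 0.626% of the aligned reads per gene in wild type, 0.544 and 0.557% in *rtf1∆* and 0.214 and 0.382% in *paf1∆*. tRNA-Phe 2 had 0.487 and 0.276%, 0.375 and 0.400%, and 0.136 and 0.190% in the same order. How well the reads separate these families is limited, and this bears on the order per gene. tRNA-Phe 1 has 2 listed sequences for 2 genes, and tRNA-Phe 2 has 3 for 8. Reads that fit both families, if divided evenly among listed sequences as within a family, would thus raise tRNA-Phe 1 per gene. Their part in this order was not tested. Of all windows of 19 to 35 nucleotides in the spliced tRNA, 44.7% lie in 1 exon of tRNA-Phe, and 56.0% of those cover a base that differs between the families. The share of windows in 1 exon is 43.5% for tRNA-Trp and 46.9% for tRNA-Tyr, and the other windows cross the splice junction, which the unspliced reference does not contain. How the reads of such windows were placed was not tested.

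**Figure D2:**
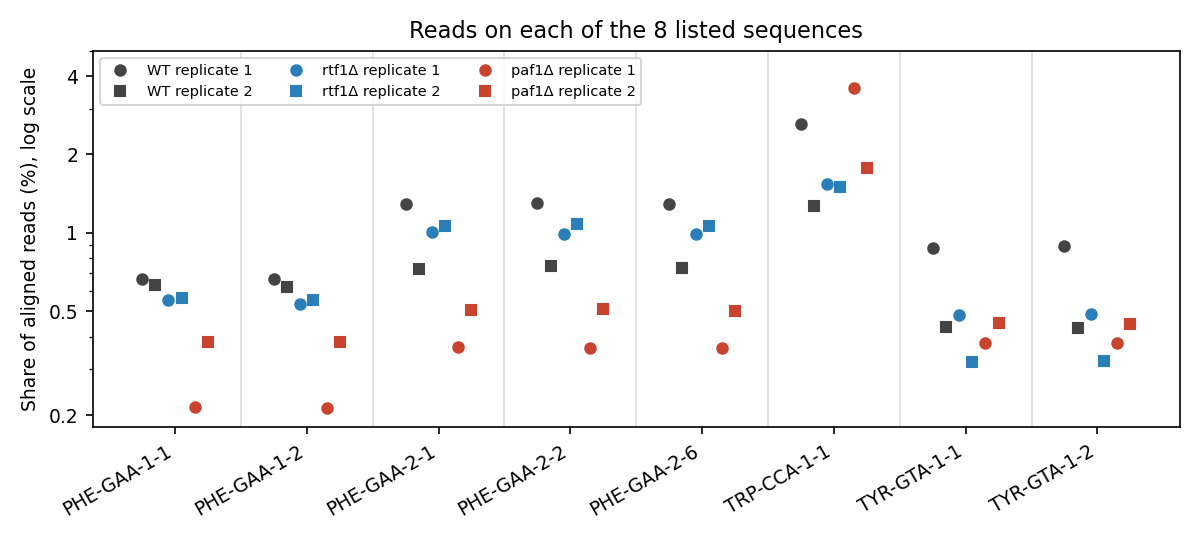
Share of the reads aligned to tRNAs on each of the 8 listed sequences, in percent on a log scale, with circles for replicate 1 and squares for replicate 2 of wild type (grey), *rtf1∆* (blue) and *paf1∆* (red). Copies of a family coincide in each library, with a highest ratio of 1.03, whereas the families differ.

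Of the aligned reads, the aromatic tRNAs together took 9.60 and 5.60% in wild type, replicates 1 and 2, 6.60 and 6.46% in *rtf1∆* and 5.88 and 4.96% in *paf1∆*. Both *rtf1∆* values and 1 of the *paf1∆* values lay between the wild type values. The 95% Wilson interval of a share given for a family or sum reached at most 0.0801 percentage points, or 3.18% of the share, to either side. These intervals cover counting error only, since PCR copies are not independent molecules.

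tRNA-Phe 1 took 1.33 and 1.25% of the reads in wild type, 1.09 and 1.11% in *rtf1∆* and 0.428 and 0.764% in *paf1∆*. Its shares in the 3 genotypes did not overlap, with *paf1∆* the lowest. tRNA-Phe 2, the most abundant of the families in wild type, took 3.90 and 2.21% in wild type, 2.997 and 3.20% in *rtf1∆* and 1.09 and 1.52% in *paf1∆*. Both *paf1∆* libraries were below all others, and both *rtf1∆* libraries lay between the wild type libraries. How many of all 55 families did not overlap in shares between genotypes was not counted, here or below. The sum of both tRNA-Phe families was 4.35% ± 1.25 (SD, n = 2) in wild type, 4.20% ± 0.163 in *rtf1∆* and 1.90% ± 0.543 in *paf1∆* (n = 2 each).

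tRNA-Trp took 2.61 and 1.27% in wild type, 1.54 and 1.50% in *rtf1∆* and 3.61 and 1.78% in *paf1∆*. *paf1∆* replicate 1 had the highest share of the 6 libraries, and *paf1∆* replicate 2 lay between the wild type libraries, so these genotypes overlapped. The *rtf1∆* libraries were close to each other and below both *paf1∆* libraries. tRNA-Tyr took 1.76 and 0.867% in wild type, 0.971 and 0.642% in *rtf1∆* and 0.757 and 0.900% in *paf1∆*. The share was below 1% in 5 of the 6 libraries, all but wild type replicate 1.

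The share in *paf1∆* depends on which other tRNAs are counted. The families tRNA-Arg(UCU) and the first and second tRNA-Ser(AGA), which had the most *paf1∆* reads, held 28.7 and 46.0% of the reads in *paf1∆* against 2.18 to 3.51% in wild type and *rtf1∆*. Without these 3 families the sum of tRNA-Phe was 2.12 and 4.23% in *paf1∆* and 5.42 and 3.54% in wild type, which overlap. tRNA-Trp without them was 5.07 and 3.30% in *paf1∆* and 2.70 and 1.30% in wild type, which do not. Their part in the fold changes given below was not tested.

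**Figure D3:**
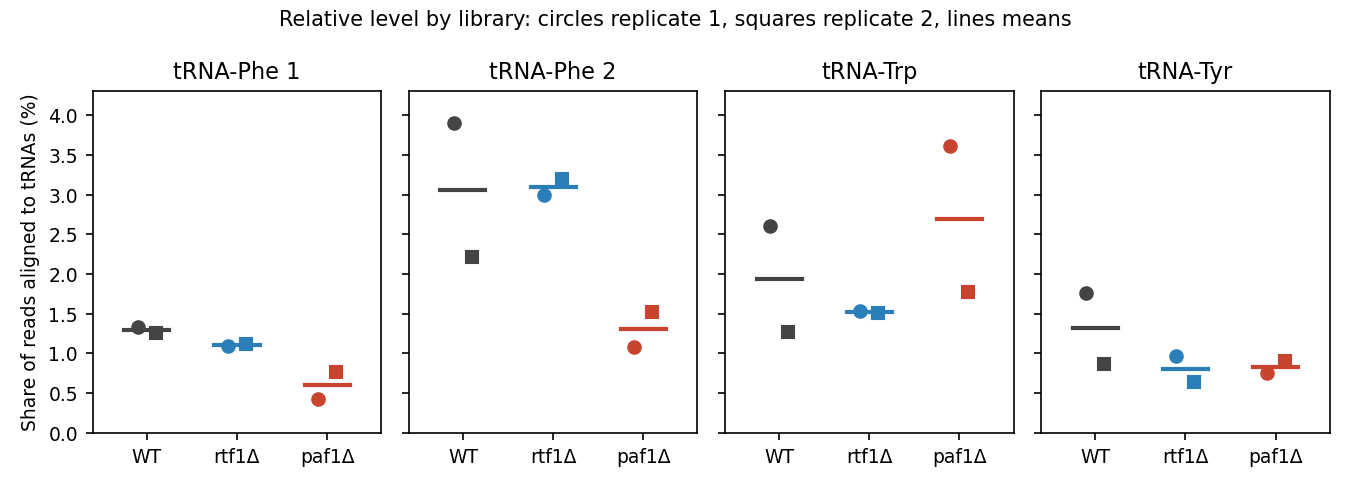
Share of the reads aligned to tRNAs taken by each aromatic family, in percent, with circles for replicate 1, squares for replicate 2 and lines for the mean of the 2 libraries of wild type (grey), *rtf1∆* (blue) and *paf1∆* (red). The *paf1∆* libraries are lowest for both tRNA-Phe families, at 0.428 to 0.764% and 1.09 to 1.52%, and tRNA-Trp reaches 3.61% in *paf1∆* replicate 1.

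Levels between families were compared per length, as reads divided by the listed length of each sequence and scaled to a sum of 1000000 per library (parts per 1000000). In wild type replicate 1 the order was tRNA-Phe 2 at 32545, tRNA-Trp at 18777, tRNA-Tyr at 15114 and tRNA-Phe 1 at 11101 parts per 1000000. In wild type replicate 2 it was tRNA-Phe 2 at 18198, tRNA-Phe 1 at 10282, tRNA-Trp at 9023 and tRNA-Tyr at 7327. tRNA-Phe 2 was thus highest in both, tRNA-Trp was above tRNA-Tyr by a like factor in both, and tRNA-Phe 1 changed places with them. The place of tRNA-Phe 1 depends on the length used, since in replicate 2 tRNA-Trp is the higher with spliced lengths (13116 against 12725) and without division by length (1.27 against 1.25% of the reads).

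In *rtf1∆* both libraries gave 1 order. tRNA-Phe 2 had 25523 ± 1148 parts per 1000000 (SD, n = 2), tRNA-Trp 10798 ± 193 and tRNA-Tyr 6818 ± 1977 (n = 2 each), and tRNA-Phe 1 had 8953 and 9146. In this order no neighbours overlapped, and the gap from tRNA-Phe 1 to tRNA-Tyr was the closest to the spread. In *paf1∆* tRNA-Trp was highest, at 26611 and 13171 parts per 1000000. tRNA-Phe 2 followed at 9240 and 12981, tRNA-Tyr at 6606 and 7892 and tRNA-Phe 1 at 3639 and 6525. Both *paf1∆* libraries had this order, and in replicate 2 tRNA-Trp and tRNA-Phe 2 differed by less than their spread.

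Per gene, tRNA-Tyr had the lowest share of reads in all 6 libraries, 0.220 and 0.108% in wild type, 0.121 and 0.0803% in *rtf1∆* and 0.0946 and 0.112% in *paf1∆*. tRNA-Phe, both families together, had 0.523 and 0.346% per gene in wild type and 0.409 and 0.432% in *rtf1∆*. In *paf1∆* it had 0.151 and 0.228%. tRNA-Trp had 0.435 and 0.212% per gene in wild type, 0.251 and 0.257% in *rtf1∆* and 0.602 and 0.297% in *paf1∆*. tRNA-Phe was thus above tRNA-Trp in all 4 wild type and *rtf1∆* libraries and below it in both *paf1∆* libraries.

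Each pair of genotypes was compared with edgeR's quasi-likelihood test over all 55 families, on counts scaled by TMM to counts per 1000000 (CPM), with Benjamini-Hochberg adjustment and a threshold of 0.05. Both deletion strains were compared with the same wild type libraries. In *paf1∆* against wild type, 0 of the 4 aromatic families passed the test, where 10 of all 55 families did (18.2%). At an unadjusted p under 0.05, 0 aromatic families passed, where 45.5% of all families did, and 0 passed by DESeq2 or by limma-voom, which called 20 (36.4%) and 10 (18.2%) of the 55 families. The median log2 fold change of the 4 families was -0.42, against 0.41 for all families.

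tRNA-Phe 2 had 28788 and 22936 CPM in wild type and 10556 and 20365 CPM in *paf1∆*, with no overlap between the genotypes. Its log2 fold change was -0.74 ± 0.52 (SE, 95% interval -1.96 to 0.47) and the adjusted p by edgeR was 0.294. tRNA-Phe 1 had 9837 and 12983 CPM in wild type and 4164 and 10256 CPM in *paf1∆*, where replicate 2 overlapped wild type, unlike in the shares. The log2 fold change was -0.66 ± 0.55 (SE) with an adjusted p by edgeR of 0.357. Without *paf1∆* replicate 2 it was -2.04 (adjusted p 0.0407 by edgeR), and 1 *paf1∆* library was then assumed to vary like the others. Without *paf1∆* replicate 1 it was -0.15.

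tRNA-Trp had 19276 and 13199 CPM in wild type and 35125 and 23875 CPM in *paf1∆*, so both *paf1∆* libraries were above both wild type libraries. The log2 fold change was 0.86 ± 0.49 (SE, 95% interval -0.30 to 2.03) and the adjusted p by edgeR was 0.207. tRNA-Tyr had 13028 and 8999 CPM in wild type and 7360 and 12076 CPM in *paf1∆*, which overlapped. The log2 fold change was -0.18 ± 0.48 (SE) and the adjusted p by edgeR was 0.730, and its sign turned without *paf1∆* replicate 1 (0.13) or without wild type replicate 1 (0.11). Of the 4 families, 2 did not overlap between genotypes, tRNA-Trp as the higher and tRNA-Phe 2 as the lower, where 76.4% of all families did not, 47.3% as higher and 29.1% as lower.

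The scaling set the level of all fold changes in this comparison. The median over the 55 families was 0.41 with TMM, 0.21 with DESeq size factors, 0.10 with total counts and 0.08 with upper-quartile scaling. The families called were 7 higher and 3 lower with TMM, 7 and 7 with DESeq size factors, 8 and 6 with total counts, and 6 and 9 with upper-quartile scaling. The signs of the 4 aromatic fold changes were the same under all 4 scalings.

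In *rtf1∆* against wild type 0 of the 4 aromatic families and 0 of the 55 families passed the edgeR test (0%), while 15 of 55 (27.3%) had an unadjusted p under 0.05, none of them aromatic. DESeq2 called 2 families (3.64%) and limma-voom 0 (0%), and none was aromatic. The wild type libraries belong to different sets. Within set 2, that is without wild type replicate 1, only 1 wild type library was left, and it was assumed to vary like the others. The log2 fold changes of tRNA-Phe 1, tRNA-Phe 2, tRNA-Trp and tRNA-Tyr were then -0.0679, 0.61, 0.37 and -0.0091. Set 1 holds no *rtf1∆* library, so the comparison could not be made there. tRNA-Phe 2 had 29054 and 23148 CPM in wild type and 31645 and 38852 CPM in *rtf1∆*, with no overlap. The log2 fold change was 0.43 ± 0.38 (SE, 95% interval -0.35 to 1.21) and the adjusted p by edgeR was 0.444. The other 3 families overlapped between the genotypes, and 50.9% of all families did not overlap, 27.3% as higher and 23.6% as lower.

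tRNA-Phe 1 had 9928 and 13103 CPM in wild type and 11486 and 13517 CPM in *rtf1∆*, with a log2 fold change of 0.12 that became -0.23 with total counts. The tRNA-Trp values were 19454 and 13321 CPM in wild type and 16251 and 18255 CPM in *rtf1∆*, so that the *rtf1∆* libraries lay inside the wild type range. Their log2 fold change of 0.07 was below 0 with DESeq size factors, total counts and upper-quartile scaling. For tRNA-Tyr there were 13148 and 9082 CPM in wild type and 10253 and 7791 CPM in *rtf1∆*, a log2 fold change of -0.30 ± 0.33 (SE). The 95% intervals of these 3 were -0.56 to 0.79, -0.64 to 0.79 and -0.97 to 0.36, so changes within these intervals were not excluded. Scaling moved the median of all families from 0.00 with TMM to -0.38 with total counts.

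The deletion strains were also compared with each other. In *paf1∆* against *rtf1∆*, 0 of the 4 aromatic families passed the edgeR test, where 19 of 55 families did (34.5%). At an unadjusted p under 0.05, 1 of the 4 passed, where 50.9% of all families did, and DESeq2 called 1 and limma-voom 0, against 28 (50.9%) and 13 (23.6%) of all families. Of the 4 families, 3 did not overlap between the genotypes, 1 as higher and 2 as lower, and of all families 80% did not, 41.8% as higher and 38.2% as lower.

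tRNA-Phe 2 had 28904 and 34567 CPM in *rtf1∆* and 8389 and 18863 CPM in *paf1∆*. The log2 fold change was -1.22 ± 0.47 (SE, 95% interval -2.57 to 0.13) and the adjusted p by edgeR was 0.117. It passed at 0.0389 with DESeq size factors, at 0.0347 with total counts and at 0.0485 with upper-quartile scaling in edgeR, and at 0.0288 in DESeq2, with log2 fold changes of -1.25 to -1.36. It also passed without *paf1∆* replicate 1 (-0.77, adjusted p 0.0412) and without *paf1∆* replicate 2 (-1.92, adjusted p 0.00929) by edgeR, each with 1 *paf1∆* library left, where 39 and 37 of all 55 families passed. It did not pass without *rtf1∆* replicate 1 (-1.37, adjusted p 0.151) or 2 (-1.08, adjusted p 0.234) by edgeR, where 0 of the 55 families passed. The direction was the same in all these fits, and whether it passed depended on the scaling and on the libraries kept.

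tRNA-Trp had 14843 and 16242 CPM in *rtf1∆* and 27914 and 22115 CPM in *paf1∆*, a log2 fold change of 0.69 ± 0.18 (SE, 95% interval 0.16 to 1.21). By edgeR its p was 0.0233 before and 0.0611 after adjustment. Without *paf1∆* replicate 1 the log2 fold change was 0.49 (adjusted p 0.0446) and without *paf1∆* replicate 2 it was 0.84 (adjusted p 0.0176) by edgeR, in the fits that called 39 and 37 of 55 families. Without *rtf1∆* replicate 1 or 2 its adjusted p was 0.441 or 0.340, and under the other scalings and DESeq2 it was 0.121 to 0.195. tRNA-Phe 1 had 10491 and 12026 CPM in *rtf1∆* and 3309 and 9499 CPM in *paf1∆*, a log2 fold change of -0.81 ± 0.58 (SE) with an adjusted p by edgeR of 0.304. Without *paf1∆* replicate 2 it was -1.77 (adjusted p 0.00929) and without *paf1∆* replicate 1 it was -0.27, so the replicates of *paf1∆* disagreed in size. tRNA-Tyr had 9364 and 6932 CPM in *rtf1∆* and 5849 and 11185 CPM in *paf1∆*. Both *rtf1∆* libraries lay inside the *paf1∆* range, and the log2 fold change of 0.06 was below 0 with DESeq size factors and with upper-quartile scaling.

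**Figure D4:**
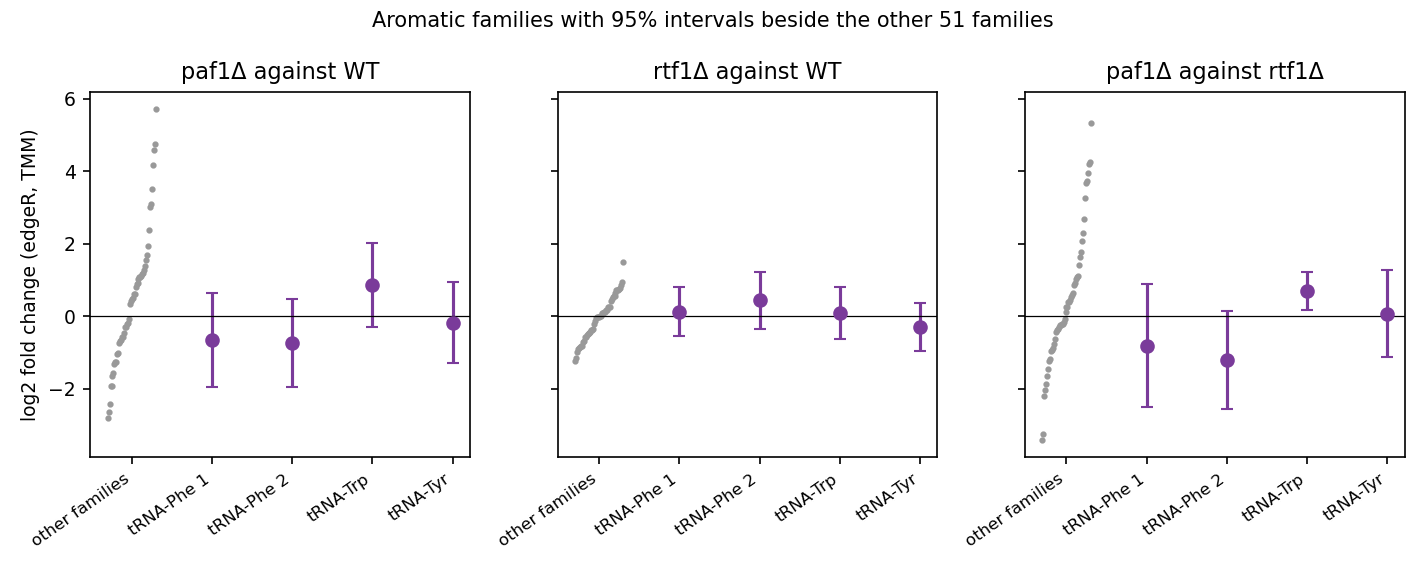
Log2 fold changes by edgeR with TMM scaling in the 3 comparisons, with 95% intervals for the 4 aromatic families (purple) and the other 51 families as grey points in rising order. The aromatic values lie between -1.22 and 0.86, inside the range of the other families, and 0 of the 12 passed the adjusted threshold.

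Ratios between families of 1 library do not depend on the scaling between libraries. They were formed from reads per listed length, with tRNA-Phe as the sum of both families. The ratio of tRNA-Trp to tRNA-Phe was 0.430 and 0.317 in wild type, 0.325 and 0.300 in *rtf1∆* and 2.07 and 0.675 in *paf1∆*. Both *paf1∆* libraries were above all 4 other libraries, and only *paf1∆* replicate 1 had more tRNA-Trp than tRNA-Phe. The geometric mean was 3.20 times that of wild type and 3.78 times that of *rtf1∆*. The *paf1∆* replicates were farther from each other, with an SD of 1.14 on the log2 scale, than the wild type (0.31) or *rtf1∆* (0.08) replicates.

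The ratio of tRNA-Trp to tRNA-Tyr was 1.24 and 1.23 in wild type, 1.33 and 1.97 in *rtf1∆* and 4.03 and 1.67 in *paf1∆*. Wild type was lowest, and the deletion strains overlapped. The ratio of tRNA-Tyr to tRNA-Phe was 0.346 and 0.257 in wild type, 0.244 and 0.153 in *rtf1∆* and 0.513 and 0.405 in *paf1∆*. The 3 genotypes did not overlap, with *rtf1∆* below and *paf1∆* above wild type. How many of the ratios among all families lay in this way was not counted. tRNA-Phe 2 to tRNA-Phe 1 was 2.93 and 1.77 in wild type, 2.76 and 2.88 in *rtf1∆* and 2.54 and 1.99 in *paf1∆*, and both deletion strains lay inside the wild type range.

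The smallest two-sided p that an exact permutation test of 1 ratio allows with 2 libraries against 2 is 0.333, so none was run. Of the 6 ratios of reads among the 4 families, 4 did not overlap between *paf1∆* and wild type, where 70.1% of the 1485 ratios among all 55 families did not. A difference of at least 2-fold besides was found for 3 of the 6, as did 61.7% of all ratios. Between *rtf1∆* and wild type 3 of 6 did not overlap (55.1% of all) and 0 did so with 2-fold (20.8% of all). Between *paf1∆* and *rtf1∆* 5 of 6 did not overlap (80.2% of all), 4 of them with 2-fold (65.1% of all). The counts among the aromatic families were thus near or below the shares over all families.

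**Figure D5:**
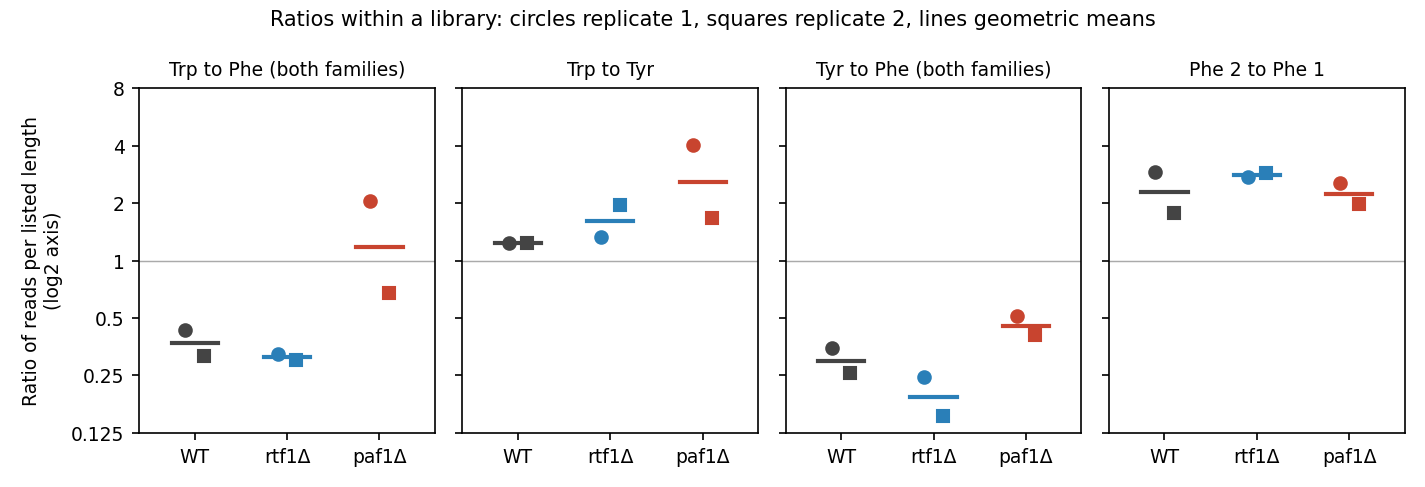
Ratios between aromatic families within each library, from reads per listed length, on a log2 axis, with circles for replicate 1, squares for replicate 2 and lines for geometric means in wild type (grey), *rtf1∆* (blue) and *paf1∆* (red). tRNA-Trp to tRNA-Phe is 0.300 to 0.430 in wild type and *rtf1∆* and 0.675 and 2.07 in *paf1∆*.

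The families most like each aromatic family were found by the Pearson correlation of log2 CPM over the 6 libraries, among the 51 other families. These correlations are descriptions, since the points share libraries, scaling and the gap between *paf1∆* and the other genotypes. tRNA-Phe 1 was most like the first tRNA-Thr(AGU) (r = 0.95, but Spearman's rho only 0.20), elongator tRNA-Met (r = 0.89, rho 0.94) and the second tRNA-Ile(UAU) (0.80). tRNA-Phe 2 was most like elongator tRNA-Met (0.93), tRNA-Pro(AGG) (0.85) and initiator tRNA-Met (0.84), which starts translation. tRNA-Trp was most like the second tRNA-Pro(UGG) (0.97), tRNA-Asn(GUU) (0.94) and tRNA-Ser(UGA) (0.92). tRNA-Tyr had no close match, with r = 0.70 for the first tRNA-Thr(AGU), 0.45 for tRNA-Glu(CUC) and 0.39 for tRNA-Leu(GAG). Among the aromatic families r was 0.91 between the tRNA-Phe families and -0.82 and -0.70 between tRNA-Trp and tRNA-Phe 1 and 2. Reads that cover no differing base fit both tRNA-Phe families, and their part in the r of 0.91 was not tested.

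The other tRNAs with introns gave a point of comparison for genes that need splicing. These were 9 families of 7 anticodons, for isoleucine (UAU), leucine (CAA and UAG), lysine (UUU), proline (UGG) and serine (CGA and GCU). In *paf1∆* against wild type, 1 of the 9 rose by edgeR and 0 fell, where 12.7% of all families rose and 5.45% fell. DESeq2 called 2 higher and 2 lower (36.4% of all families in either direction), and limma-voom 1 and 0 (18.2% of all). At an unadjusted p under 0.05, 5 of the 9 passed by edgeR, against 45.5% of all. Their median log2 fold change was 0.62, against -0.42 for the aromatic and 0.41 for all families. The one that rose was tRNA-Ser(CGA), with a log2 fold change of 5.72 and an adjusted p of 0.00884 by edgeR. Its level was low in wild type, at 95.3 and 65.0 CPM, and its *paf1∆* libraries lay far apart, at 6869 and 1574 CPM. The 2 families of tRNA-Ile(UAU) had log2 fold changes of -1.27 and -1.03 and did not pass.

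In *rtf1∆* against wild type 0 of the 9 passed by edgeR in either direction, 0 of them also at an unadjusted p under 0.05 (27.3% of all families) and 0 by DESeq2 or limma-voom, and the median was -0.22, against 0.10 for the aromatic and 0.00 for all families. In *paf1∆* against *rtf1∆* 1 rose by edgeR and 0 fell, where 18.2% of all families rose and 16.4% fell, and 4 of the 9 had an unadjusted p under 0.05 (50.9% of all). DESeq2 called 3 higher and 2 lower (50.9% of all in either direction) and limma-voom 0 and 0 (23.6% of all). The one that rose was again tRNA-Ser(CGA), with a log2 fold change of 5.34, from 86.3 and 84.4 CPM in *rtf1∆* to 5459 and 1458 CPM in *paf1∆*. The median of the 9 was 0.52, against -0.38 for the aromatic and 0.11 for all families. No test of the lists against each other was made. tRNA-Trp and the tRNA-Phe families, with introns of 34 and of 18 or 19 nucleotides, stood on opposite sides of 0 in both comparisons with *paf1∆*. tRNA-Tyr, with the shortest intron of 14 nucleotides, was at -0.18 against wild type and 0.06 against *rtf1∆*. None of these families passed the test by edgeR, and a relation to intron length was not tested.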

How the data were processed

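tRNA-HySeq was done on 2 libraries each of wild type, *rtf1∆* and *paf1∆* cells. The authors clipped adapters, trimmed the reads, aligned them to a file of unique yeast tRNAs and deposited the counts of reads per tRNA sequence from IdxStats, without normalization. The submitters' processing notes name Bowtie and SAMtools. How reads fitting several sequences were placed is not given in the sources used here. Genotypes and replicates were taken from the labels; for *rtf1∆* the replicate numbers are crossed with those of the library names.

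The members and lists were chosen with earlier results of these data known. The text names all aromatic sequences and families, the families of the other tRNAs with introns, and for each aromatic family the 3 most like it. Families of tRNA-Arg and tRNA-Ser with the most *paf1∆* reads were named after their values were seen.

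Counts were summed by family and fitted on the 4 libraries of each comparison with edgeR 4.0.16 in R 4.3.3 (TMM, quasi-likelihood test, two-sided, Benjamini-Hochberg over 55 families, threshold 0.05). A minimum of 10 counts in 2 libraries removed no family. The SE is the absolute log2 fold change over the square root of F. Depth was 519302 to 8259323 aligned reads per library, at which 3 counts are at most 0.000578% of the reads. The scripts were tested on simulated data. Alternatives were other scalings, DESeq2 1.42.0, limma-voom (limma 3.58.1), other filters, 1 fit over the 6 libraries, the replicate block, single sequences, sums by anticodon and each library left out. Reads aligned to no tRNA were not used.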

Additional observations from a re-analysis of the deposited data

Results flagged for a closer look

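tRNA-Phe 2 stood on opposite sides of wild type in the 2 deletion strains: both *paf1∆* libraries were below, and both *rtf1∆* libraries above, both wild type libraries in CPM. The difference between the deletion strains was -1.22 on the log2 scale (*paf1∆* minus *rtf1∆*), and it did not pass the test (adjusted p 0.117 by edgeR). In shares of reads, *rtf1∆* lay between the wild type libraries. How many of all 55 families lay on opposite sides in this way was not counted. Of all families, 76.4% did not overlap between *paf1∆* and wild type in CPM, and 50.9% did not between *rtf1∆* and wild type.

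The ratio of tRNA-Tyr to tRNA-Phe within a library was above wild type in both *paf1∆* libraries and below it in both *rtf1∆* libraries. The deletion strains differed by 1.24 on the log2 scale. This difference was not tested, because an exact permutation test of 2 libraries against 2 cannot go below a p of 0.333. How many of the ratios among all families lay in this way was not counted. Of all ratios of 2 families, 70.1% did not overlap between *paf1∆* and wild type, and 55.1% did not between *rtf1∆* and wild type.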

How the results depend on the processing

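Of 188 alternative values of the 12 aromatic fold changes, 159 had the same sign and the same side of the threshold. A further 10 passed it where the reported value did not, and 19 changed sign. The causes were not tested. The fits without a count filter are among the 159 and repeat the reported fits, since the filter removed no family. In *paf1∆* against wild type and in *paf1∆* against *rtf1∆* the filter of 100 counts also repeated them. No paired design is given by the labels. With the replicate number as a block 0 of 55 families were called in *paf1∆* against wild type and 10 in *paf1∆* against *rtf1∆*; same-numbered libraries deviated together with r = 0.11, 0.30 and 0.04 over 55 families, and the block changed no aromatic call. In *paf1∆* against wild type DESeq2 and the fit of all 6 libraries each called 20 families. In *rtf1∆* against wild type total counts called 3, DESeq2 2 and single sequences 4. In *paf1∆* against *rtf1∆*, DESeq size factors, total counts, upper-quartile scaling and DESeq2 each called 1 aromatic family, tRNA-Phe 2, at -1.31, -1.25, -1.36 and -1.31.

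For *rtf1∆* against wild type the value of tRNA-Phe 1 was -0.23 with total counts, and that of tRNA-Trp was -0.0350 with DESeq size factors, -0.35 with total counts, -0.0785 with upper-quartile scaling, -0.0350 in DESeq2, -0.0029 in the fit of all 6 libraries and -0.000704 summed by anticodon. For *paf1∆* against *rtf1∆* tRNA-Tyr was -0.0097 with DESeq size factors and in DESeq2, -0.0628 with upper-quartile scaling and -0.0807 summed by anticodon.

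Leaving out each library in turn left 1 library in a genotype, assumed to vary like the others. The families called then ranged from 4 to 19 in *paf1∆* against wild type, from 0 to 20 in *rtf1∆* against wild type and from 0 to 39 in *paf1∆* against *rtf1∆*, and the aromatic ones from 0 to 1, 0 to 0 and 0 to 3. The fold changes of tRNA-Phe 1, tRNA-Phe 2, tRNA-Trp and tRNA-Tyr ranged from -2.04 to -0.15, -1.88 to -0.34, 0.20 to 1.16 and -1.17 to 0.13 in *paf1∆* against wild type. In *rtf1∆* against wild type they ranged from -0.0679 to 0.23, 0.16 to 0.61, -0.29 to 0.37 and -0.65 to -0.01, and in *paf1∆* against *rtf1∆* from -1.77 to -0.27, -1.92 to -0.77, 0.49 to 0.84 and -0.48 to 0.43.

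Spliced lengths were used for the aromatic families only, and all other families kept their listed lengths, which raises the aromatic values. Division by spliced length gave 13165 parts per 1000000 for tRNA-Phe 1 in wild type, and 11174, 31459 and 15661 for tRNA-Phe 1, tRNA-Phe 2 and tRNA-Trp in *rtf1∆*. In *paf1∆* it gave 14129 for tRNA-Phe 2, 29598 for tRNA-Trp and 8749 for tRNA-Tyr. Without division the values were 12916 for tRNA-Phe 1 in wild type, 11010, 30996 and 15218 in *rtf1∆* in the order above, and 8284 for tRNA-Tyr in *paf1∆*. Without the 3 families of most *paf1∆* reads the mean shares in *paf1∆* were 1.01, 2.17, 4.18 and 1.36% for tRNA-Phe 1, tRNA-Phe 2, tRNA-Trp and tRNA-Tyr, and in *rtf1∆* 1.13% for tRNA-Phe 1 and 1.57% for tRNA-Trp. By Spearman correlation 1 of the 3 families most like tRNA-Phe 1 and 1 of those most like tRNA-Trp was the same, as was 1 for tRNA-Tyr with DESeq size factors. Counting error at these depths was at most 3.18% of a share. In comparisons with *paf1∆*, genotype and processing cannot be told apart at any depth.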
